A study of Mus musculus with 6 samples.

Results

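The genes described here encode 28 proteins of the lysosome: 10 proteases and their processing enzymes, 8 glycosidases, 5 proteins of lipid handling and 5 membrane proteins. They were chosen by gene symbol, all 28 were found among the 51803 symbols of the table, and all 28 were among the 12709 genes tested, which had mean levels of 1 FPKM or more over the libraries. FPKM is the number of fragments per unit of transcript length, scaled by library size, and the transcripts of each symbol were summed. The tissue was kidney of BALB/c mice, a common inbred strain, all males aged 8 weeks, taken every 4 h of a light/dark cycle to follow daily changes in expression. Time is zeitgeber time (ZT), in hours after lights on. The 6 groups run in 4 h steps from ZT0 to ZT20, each a single library, so no value below has a replicate. Errors of fitted waves come from how far the 6 points lie from a cosine, a scatter that the fit draws toward that of genes of similar level. The labels name no gene deletion or drug in any group and give renal tissue with no sorting of cells, so fewer cells of a type and less RNA per cell cannot be told apart.

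Lysosomes are acidic organelles in which proteases, glycosidases, lipases and sulfatases break down material delivered by endocytosis and autophagy. Most of the soluble enzymes are tagged with mannose 6-phosphate in the Golgi and carried by receptors to the lysosome, whose membrane is lined by heavily glycosylated proteins such as LAMP1 and LAMP2. The kidney's proximal tubule takes up filtered proteins in bulk and degrades them in lysosomes. Many lysosomal genes carry the CLEAR element, a short sequence built around CACGTG that is bound by the transcription factor TFEB and its relatives. The same 6 letters are the E-box bound by the clock proteins CLOCK and BMAL1.

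Per library the FPKM added up to between 534448 (ZT20) and 577493 (ZT8), with 577407 at ZT16. The part of these sums in the results below was not tested. The library scale estimated from the median of ratios lay between -0.03 (ZT4) and 0.03 (ZT20) on the log2 scale. Mitochondrially encoded transcripts held 28.6% of the FPKM at ZT4 and 22.2% at ZT20, the highest and the lowest share. The number of reads is unknown, because the values are normalised and low values did not fall into steps of whole reads. Markers of the proximal tubule (10 of 10 genes found, none listed at 0) summed to between 4174 FPKM (ZT20) and 4463 FPKM (ZT4), and markers of blood (4 of 4 found) to between 122 FPKM (ZT8) and 310 FPKM (ZT16). Podocyte markers (3 of 3 found) summed to between 20.7 FPKM (ZT12) and 64.5 FPKM (ZT20), and endothelial markers (3 of 3 found) to between 27.3 FPKM (ZT8) and 49.9 FPKM (ZT20). Their part in the results below was not tested.

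The lysosomal genes differed little over the day, and ZT8 was the time at which most of them were highest. The ZT8 library held the highest level of 16 of the 28 genes (57.1%), against 14.1% of all genes tested. The ZT20 library held the lowest level of 11 of them (39.3%), against 16.5% of all genes tested. The ZT8 level was above the ZT20 level in 25 of 28 genes, against 45.4% of all genes tested. No lysosomal gene had its lowest level at ZT8. Gla is counted at ZT8, although its ZT8 and ZT16 levels were both 2.26 FPKM as rounded. Each of these counts rests on 1 library per time, and genes measured in the same library are not independent of one another. The count for ZT8 was 17 with the libraries rescaled by the median of ratios and 13 with quantile normalization. The count for ZT20 was 16 and 6 in the same order of settings. The shares of 14.1% and 16.5% belong to the values as deposited. Those of all genes tested under the 2 scalings are not given here, so the rescaled counts lack a background.

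**Figure D1:**
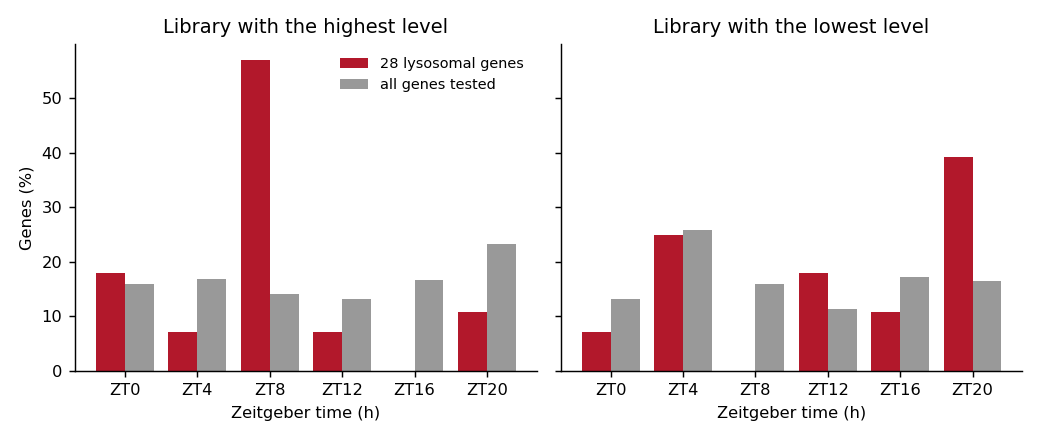
Share of genes, in percent, whose highest level (left) or lowest level (right) was in the library of each zeitgeber time, for the 28 lysosomal genes (red) and all 12709 genes tested (grey). The red bar at ZT8 in the left panel stands at 57.1% beside 14.1% for all genes.

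The differences behind these counts were small. The highest library stood above the lowest by a median of 1.23 times over the 28 genes, against 1.35 times over all genes tested. A ratio above 1.5 was seen in 3 of the 28 (Gusb, Neu1 and Ctss), against 32% of all genes tested. The lysosomal genes are also abundant, with a median of 66.3 FPKM, against 9.03 FPKM over all genes tested. Among genes with mean levels of 50 FPKM or more, the highest level was at ZT8 in 12 of 17 lysosomal genes, against 20.4% of the 1474 genes tested at that level, and the median ratio of highest to lowest was 1.20 in the lysosomal genes, against 1.26. In the 16 genes highest at ZT8, that library exceeded the next one by a median of 1.06 times, with 1.24 times in Gusb as the largest value.

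**Figure D2:**
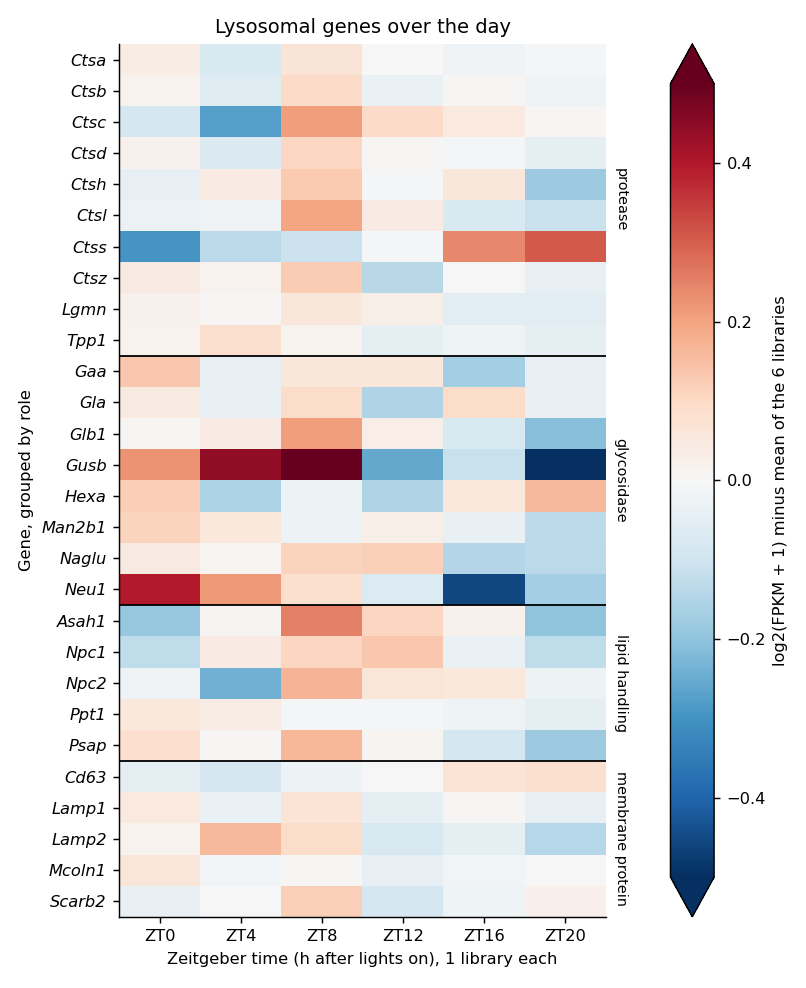
Level of each of the 28 lysosomal genes (rows, grouped by role) at each zeitgeber time (columns, 1 library each), as log2(FPKM + 1) minus the mean of the gene over the 6 libraries. Red is above and blue below the gene's own mean, and the colour scale stops at 0.5 to either side, which Gusb exceeds. The ZT8 column is red in most rows, and Gusb and Neu1 are the strongest rows.

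A cosine of 24 h was fitted to log2(FPKM + 1) of every gene with limma. At an unadjusted p under 0.05, 4 of the 28 lysosomal genes had a wave (14.3%), against 19.1% of all genes tested, so the share lay near the background. The 4 were Asah1, Neu1, Gusb and Glb1. After Benjamini-Hochberg adjustment over all genes tested, 0 of 28 passed the threshold of 0.05 (limma, adjusted p between 0.16 and 0.986), against 0.283% of all genes tested. By ordinary least squares 0 passed after adjustment, and 3 of the 28 had an unadjusted p under 0.05, against 13.1% of all genes tested. They were Asah1, Npc1 and Cd63. Gusb, Neu1 and Glb1 had ordinary least squares p of 0.164, 0.0836 and 0.0566. The median fitted amplitude, from mean to peak on the log2 scale, was 0.09 in the lysosomal genes, against 0.13 over all genes tested. The fitted peak lay between ZT2 and ZT10 in 20 of 28 genes, against 33.3% of all genes tested. Peaks of genes with small amplitudes are poorly placed, with standard errors of 8.76 h in Ctsb and 7.82 h in Lamp1. Without the ZT8 library these 2 peaks moved to ZT19.4 and ZT22.6. Without the ZT16 library, 2 of the 28 had an unadjusted p under 0.05, against 13% of all genes tested. Without the ZT20 library it was also 2 of the 28, against 9.12% of all genes tested.

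**Figure D3:**
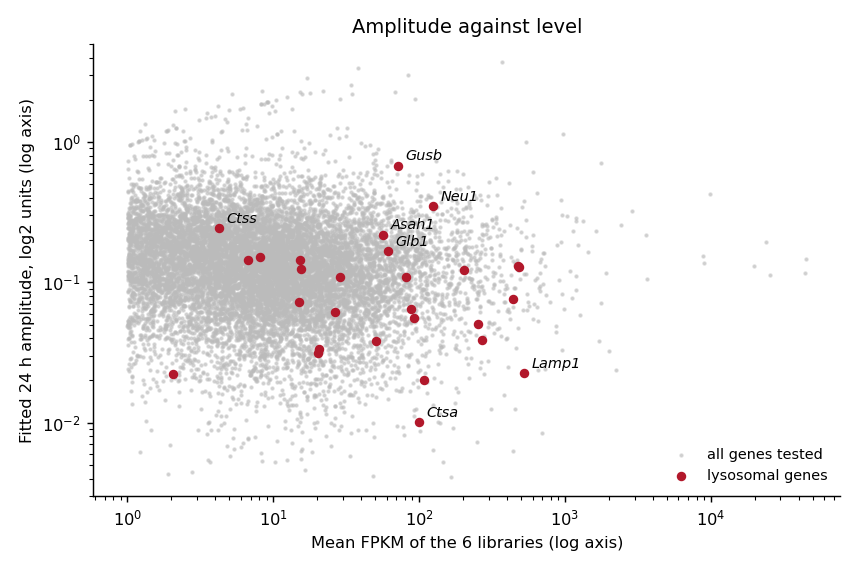
Fitted 24 h amplitude (log2 units, log axis) against mean level over the 6 libraries (FPKM, log axis) for all 12709 genes tested (grey) and the 28 lysosomal genes (red). Gusb, at an amplitude of 0.68, is the highest red point, and the median of the red points is 0.09.

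Among the glycosidases, Gusb varied most. Gusb encodes β-glucuronidase, which removes glucuronic acid from glycosaminoglycans and from conjugated steroids and drugs, and in mouse kidney it is a classical androgen-responsive gene. Its level was 77.8 (ZT0), 90.7 (ZT4), 112 (ZT8), 55.5 (ZT12), 61.4 (ZT16) and 31.7 (ZT20) FPKM. The 3 libraries from ZT0 to ZT8 were all above the 3 libraries from ZT12 to ZT20, and ZT8 was 3.54 times ZT20. The fitted amplitude was 0.68 ± 0.18 (SE, log2 scale, n = 6 libraries) and the fitted peak at ZT6.26 ± 1.01 h (limma adjusted p = 0.209), and 1.28% of all genes tested had a larger amplitude. An exact permutation test of the share of variance taken by the cosine, over the 60 circular orders of the libraries and one-sided by construction, gave p = 0.167. The amplitude was 0.44 without the ZT20 library and 0.94 without the ZT16 library. A single protein-coding transcript, Gusb-201 of 2687 bases, held 98.2% of the gene's FPKM. The gene (ENSMUSG00000025534) is at chr5:129989011-130003049 of GRCm38, on the reverse strand.

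Neu1, Glb1 and Ctsa encode the members of 1 lysosomal complex, in which the serine carboxypeptidase cathepsin A protects the sialidase NEU1 and the β-galactosidase GLB1. The highest library was ZT0 for Neu1 and ZT8 for Glb1 and Ctsa. Neu1 had 162 (ZT0), 143 (ZT4), 130 (ZT8), 117 (ZT12), 89.2 (ZT16) and 109 (ZT20) FPKM. It stepped down from each library to the next between ZT0 and ZT16, and its highest level was 1.81 times its lowest. The amplitude was 0.35 ± 0.08 (SE, log2 scale, n = 6 libraries) and the fitted peak at ZT3.33 ± 0.843 h (limma adjusted p = 0.172, exact permutation p = 0.1). Most of the Neu1 signal (87%) was in the protein-coding transcript Neu1-201, which ran between 74.6 FPKM (ZT16) and 142 FPKM (ZT0). A transcript with a retained intron, Neu1-202, held 12.9% and ran between 11.4 FPKM (ZT12) and 23 FPKM (ZT4).

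Glb1 had 61 (ZT0), 62.5 (ZT4), 70.3 (ZT8), 62.1 (ZT12), 57.6 (ZT16) and 52.2 (ZT20) FPKM. ZT8 stood above the other libraries and ZT20 below them. The amplitude was 0.17 ± 0.05 (SE, log2 scale, n = 6 libraries) and the fitted peak at ZT7.39 ± 1.08 h (limma adjusted p = 0.227). Its exact permutation p of 0.0167 was the smallest that 60 orders can give. Glb1 was the only 1 of the 28 genes to reach that value. The share of all genes tested that reach it is not given here, so this count lacks a background. Glb1 overlaps Tmppe on the same strand, so reads can be shared between them. Ctsa had 102 (ZT0), 94.3 (ZT4), 104 (ZT8), 99.6 (ZT12), 98.2 (ZT16) and 99.1 (ZT20) FPKM. It had the smallest fitted amplitude of the 28 genes, 0.01 ± 0.05 (SE, log2 scale, n = 6 libraries; limma adjusted p = 0.986). Whether Neu1, Glb1 and Ctsa differ from one another in amplitude or peak was not tested. All 3 genes are on forward strands of GRCm38, Neu1 at chr17:34931253-34935953, Glb1 at chr9:114401076-114474898 and Ctsa at chr2:164832873-164841032.

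The promoters of the complex also differ in their letters. The 3 sequences below are the 300 bases from 250 before to 50 after the annotated start of Ctsa (chr2:164833523-164833822, forward strand), Glb1 (chr9:114400828-114401127, forward strand) and Neu1 (chr17:34931003-34931302, forward strand), from RefSeq on GRCm38, with each CACGTG in capitals. For Ctsa, which has a second annotated start without the motif, the start with the motif is shown.
Ctsa: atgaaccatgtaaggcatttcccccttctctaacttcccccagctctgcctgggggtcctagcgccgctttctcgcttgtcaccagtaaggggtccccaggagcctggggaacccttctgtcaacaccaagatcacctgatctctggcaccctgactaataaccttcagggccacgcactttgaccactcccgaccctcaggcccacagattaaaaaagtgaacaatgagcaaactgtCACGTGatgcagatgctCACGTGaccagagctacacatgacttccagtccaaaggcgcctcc
Glb1: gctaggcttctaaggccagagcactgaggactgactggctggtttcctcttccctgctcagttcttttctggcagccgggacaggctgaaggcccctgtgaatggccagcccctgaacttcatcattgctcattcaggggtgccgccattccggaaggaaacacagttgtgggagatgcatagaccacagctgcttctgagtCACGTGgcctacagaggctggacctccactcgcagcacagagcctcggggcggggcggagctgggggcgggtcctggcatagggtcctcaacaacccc
Neu1: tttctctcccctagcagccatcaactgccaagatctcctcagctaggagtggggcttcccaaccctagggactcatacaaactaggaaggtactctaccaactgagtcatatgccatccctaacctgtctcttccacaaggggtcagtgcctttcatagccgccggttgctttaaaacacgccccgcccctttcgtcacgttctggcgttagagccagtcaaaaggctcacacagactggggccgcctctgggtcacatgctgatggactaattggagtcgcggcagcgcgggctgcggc
Ctsa held CACGTG 2 times, with first bases 12 before the start and at base 6 of the transcript. Glb1 held it once, 48 bases before the start, and Neu1 held none in this window.

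**Figure D4:**
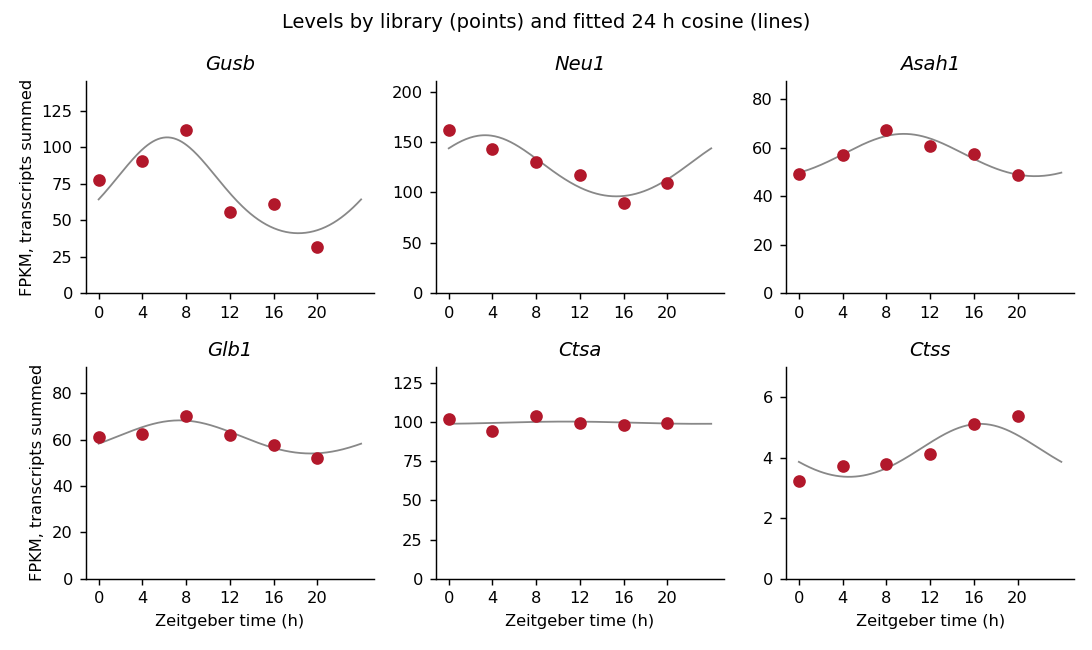
Level in FPKM (transcripts summed, vertical axis from 0) at each zeitgeber time in hours for Gusb, Neu1, Asah1, Glb1, Ctsa and Ctss, with 1 point per library and the fitted 24 h cosine as a line. Gusb runs between 31.7 and 112 FPKM, while Ctsa stays between 94.3 and 104 FPKM.

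The other glycosidases varied less. Hexa, the α subunit of β-hexosaminidase, which degrades GM2 ganglioside, was highest at ZT20, with 17 FPKM, and lowest at ZT4, with 13.4 FPKM. Naglu, which removes N-acetylglucosamine from heparan sulfate, ran between 13.9 FPKM (ZT16) and 16.9 FPKM (ZT12). Gaa, the acid α-glucosidase that degrades glycogen, ran between 13.1 FPKM (ZT16) and 16.4 FPKM (ZT0). Man2b1, the lysosomal α-mannosidase, ran between 23.9 FPKM (ZT20) and 28.5 FPKM (ZT0), and Gla, the α-galactosidase, between 1.76 FPKM (ZT12) and 2.26 FPKM, reached at both ZT8 and ZT16. The limma adjusted p of these 5 genes lay between 0.345 and 0.978. Gla had the lowest level of the 28 genes, and Gusb, Neu1 and Glb1 stood above the other glycosidases by level per length.

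Of the 10 proteases and processing enzymes, 8 were highest at ZT8, and 0 had an unadjusted p under 0.05. Ctsd, the main aspartic protease of the lysosome, had 273 (ZT0), 256 (ZT4), 289 (ZT8), 270 (ZT12), 267 (ZT16) and 261 (ZT20) FPKM. Ctsl, a cysteine protease, had 199 (ZT0), 201 (ZT4), 233 (ZT8), 209 (ZT12), 193 (ZT16) and 188 (ZT20) FPKM. Both were highest at ZT8, by 1.06 times over ZT0 for Ctsd and by 1.11 times over ZT12 for Ctsl. The amplitude of Ctsl was 0.12 ± 0.05 (SE, log2 scale, n = 6 libraries; limma adjusted p = 0.325) and that of Ctsd 0.04 ± 0.05 (adjusted p = 0.835). In Ctsl the full-length transcript Ctsl-201 of 1971 bases ran between 122 FPKM (ZT4) and 141 FPKM (ZT8), and the transcript Ctsl-204 of 698 bases between 46.6 FPKM (ZT20) and 72.5 FPKM (ZT8). Ctsd overlaps the gene model Gm49369 on its own strand, and Ctsl a processed pseudogene, Gm49230.

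Lgmn encodes legumain, an asparaginyl endopeptidase that cuts several cathepsins to their mature forms. It stayed between 245 FPKM (ZT20) and 265 FPKM (ZT8), a ratio of 1.08. Ctsb and Ctsh, both cysteine proteases, ran between 104 FPKM (ZT4) and 116 FPKM (ZT8), and between 72 FPKM (ZT20) and 89.7 FPKM (ZT8). Ctsz, a carboxypeptidase, ran between 80.1 FPKM (ZT12) and 96.5 FPKM (ZT8). Tpp1, the tripeptidyl peptidase whose loss causes a neuronal ceroid lipofuscinosis in humans, was the 1 protease highest at ZT4, between 89.8 FPKM (ZT20) and 98.3 FPKM. Ctsc, the dipeptidyl peptidase that activates granule proteases of leukocytes, was low in these kidneys, between 6.55 FPKM (ZT4) and 9.55 FPKM (ZT8).

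Ctss encodes cathepsin S, a cysteine protease of macrophages and other antigen-presenting cells, and was the 1 protease highest at ZT20. Its level was 3.22 (ZT0), 3.72 (ZT4), 3.81 (ZT8), 4.14 (ZT12), 5.11 (ZT16) and 5.4 (ZT20) FPKM. Each library from ZT4 on was above the one before it, and ZT20 was 1.67 times ZT0. The amplitude was 0.24 ± 0.09 (SE, log2 scale, n = 6 libraries) and the fitted peak at ZT16.6 ± 1.34 h (limma adjusted p = 0.298, exact permutation p = 0.25). The 10 macrophage markers, all found and none listed at 0, summed to 52.9 (ZT0), 48 (ZT4), 58.7 (ZT8), 61.6 (ZT12), 57.2 (ZT16) and 64.2 (ZT20) FPKM, and 5 of the 10 were highest at ZT20. Of all genes tested, 23.3% were highest at ZT20. Lyz2 made up much of the macrophage sum. Lyz2 ran between 21.2 FPKM (ZT4) and 28 FPKM, reached at both ZT12 and ZT20 as rounded. It had 23.3 FPKM at ZT0 and 25 FPKM at ZT16. Cd68 was highest at ZT0 (1.99 FPKM) and Csf1r at ZT8 (12.4 FPKM). Itgam was highest at ZT12 (0.376 FPKM) and Mrc1 at ZT16 (1.44 FPKM). The part of these markers in the Ctss values was not tested. Ctss also overlaps a pseudogene, Hmgb1-ps5, on its own strand.

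Among the genes of lipid handling, Asah1 had the smallest limma p of the 28, while Glb1 had the smallest exact permutation p and Npc1 the smallest p by ordinary least squares. Asah1 encodes acid ceramidase, which splits ceramide into sphingosine and a fatty acid. Its level was 49.2 (ZT0), 56.8 (ZT4), 67.3 (ZT8), 60.7 (ZT12), 57.2 (ZT16) and 48.8 (ZT20) FPKM. The libraries climb to ZT8 and step down after it, and ZT8 was 1.38 times ZT20. The amplitude was 0.22 ± 0.04 (SE, log2 scale, n = 6 libraries) and the fitted peak at ZT9.59 ± 0.78 h (limma adjusted p = 0.16, exact permutation p = 0.05). Its unadjusted p was under 0.05 in all 6 fits that left out 1 library, between 0.00852 and 0.0471. Asah1 is at chr8:41340197-41374773 of GRCm38, on the reverse strand, and its transcript Asah1-201 held 90% of the FPKM.

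Npc1 and Npc2 pass cholesterol from the lumen to the membrane of the lysosome. Npc1 ran between 6.08 FPKM, at ZT0 and again at ZT20, and 7.49 FPKM (ZT12), with an amplitude of 0.14 ± 0.05 (SE, log2 scale, n = 6 libraries; limma adjusted p = 0.273), and the cosine took 0.97 of its variance. Npc2 ran between 23.9 FPKM (ZT4) and 32.1 FPKM (ZT8). Psap, the precursor of the saposins that present sphingolipids to hydrolases, was among the most abundant of the 28 genes, with 512 (ZT0), 484 (ZT4), 542 (ZT8), 487 (ZT12), 454 (ZT16) and 425 (ZT20) FPKM. Its highest level was 1.28 times its lowest (limma adjusted p = 0.377). Ppt1, which removes palmitate from proteins, stayed between 48.9 FPKM (ZT20) and 52.6 FPKM (ZT0).

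The membrane proteins had the smallest median fitted amplitude of the 4 roles, 0.03, and 0 of 5 genes at an unadjusted p under 0.05. Lamp1 had 544 (ZT0), 515 (ZT4), 552 (ZT8), 510 (ZT12), 528 (ZT16) and 511 (ZT20) FPKM, a ratio of 1.08 between highest and lowest. Lamp2, needed for the fusion of autophagosomes with lysosomes and for chaperone-mediated autophagy, had 483 (ZT0), 534 (ZT4), 509 (ZT8), 451 (ZT12), 463 (ZT16) and 432 (ZT20) FPKM. Its highest level was 1.24 times its lowest (amplitude 0.13 ± 0.05, SE, log2 scale, n = 6 libraries; limma adjusted p = 0.307). A pair of protein-coding transcripts shared the Lamp2 signal, Lamp2-201 with 50.6% and Lamp2-202 with 47.2%. Lamp2-201 ran between 205 FPKM (ZT20) and 271 FPKM (ZT8). Lamp2-202 ran between 199 FPKM (ZT12) and 260 FPKM (ZT4).

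Cd63, a tetraspanin of late endosomes and lysosomes, was highest at ZT20, with 425 (ZT0), 414 (ZT4), 431 (ZT8), 439 (ZT12), 460 (ZT16) and 463 (ZT20) FPKM. The ratio of its highest to its lowest level was 1.12 (limma adjusted p = 0.492). Scarb2, which encodes LIMP-2, the carrier of β-glucocerebrosidase to the lysosome, ran between 18.9 FPKM (ZT12) and 21.9 FPKM (ZT8). Mcoln1, the calcium channel whose opening activates TFEB, stayed between 19.9 FPKM (ZT12) and 21.4 FPKM (ZT0).

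Promoter sequences were found in RefSeq for 24 of the 28 genes, and not for Asah1, Ctsb, Ctsh and Npc1. CACGTG, which reads the same on both strands, was present in at least 1 promoter of 10 of these 24 genes (41.7%). It was present in 7.15% of all 32851 promoters of the same length, and in at least 1 promoter of 12% of the tested symbols that have an entry. The 10 genes were Ctsa, Ctsd, Ctsl, Gaa, Gla, Glb1, Lamp1, Lgmn, Mcoln1 and Naglu. Lgmn is counted through the start of chr12:102439043-102439342, while its other annotated start (chr12:102439679-102439978) held none. The start with the motif was not matched to an annotated transcript of Lgmn, and the start without it was. TCACGTG on either strand, which contains CACGTG, was present in 9 of the 24 genes (37.5%), against 3.77% of all promoters and 7.31% of the tested symbols that have an entry. TTATGTAA on either strand, a form of the D-box bound by the clock output factor DBP, was present in 0 of the 24 genes, against 0.938% of all promoters and 0.707% of those symbols. Lamp1 (chr8:13158911-13159210, forward strand) held CACGTG 4 times, the most of the 24 genes, and Mcoln1 (chr8:3500269-3500568, forward strand) held it 2 times. They are printed beside Gusb (chr5:130003000-130003299, reverse strand, as transcribed), the gene with the largest amplitude, which held none.
Lamp1: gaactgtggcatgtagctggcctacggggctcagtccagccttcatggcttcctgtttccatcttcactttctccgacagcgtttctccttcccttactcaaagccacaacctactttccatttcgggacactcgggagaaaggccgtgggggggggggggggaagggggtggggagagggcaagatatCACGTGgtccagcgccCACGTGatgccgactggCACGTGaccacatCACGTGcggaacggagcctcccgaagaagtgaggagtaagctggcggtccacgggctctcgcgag
Mcoln1: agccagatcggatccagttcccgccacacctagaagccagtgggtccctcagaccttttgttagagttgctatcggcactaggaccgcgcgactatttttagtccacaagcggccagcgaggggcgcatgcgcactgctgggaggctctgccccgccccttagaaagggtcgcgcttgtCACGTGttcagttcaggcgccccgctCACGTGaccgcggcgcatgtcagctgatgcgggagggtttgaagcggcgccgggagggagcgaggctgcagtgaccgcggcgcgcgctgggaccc
Gusb: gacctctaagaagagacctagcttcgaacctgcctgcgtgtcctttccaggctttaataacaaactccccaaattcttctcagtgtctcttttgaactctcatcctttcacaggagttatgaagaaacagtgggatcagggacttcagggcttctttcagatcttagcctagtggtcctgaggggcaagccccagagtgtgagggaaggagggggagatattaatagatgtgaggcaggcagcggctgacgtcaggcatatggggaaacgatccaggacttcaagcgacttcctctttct
In Lamp1 the first bases of the 4 copies lie 61, 45, 28 and 15 bases before the start, and in Mcoln1 those of the 2 copies lie 71 and 45 bases before it. The 10 genes with CACGTG had a median amplitude of 0.04 (range 0.01 to 0.17), against 0.12 (range 0.03 to 0.68) in the 14 genes without it. Their levels were highest at ZT8 in 7 of 10 genes with the letters, against 6 of 14 without them. These values describe the windows searched and were not tested.

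Other genes of the lysosome were read from the same fit in 5 lists of 102 genes, of which 93 were tested. At an unadjusted p under 0.05 there were 23 of 93 (24.7%), against 19.1% of all genes tested, and 0 passed after adjustment over all genes. Of the 23, 18 had a fitted peak between ZT2 and ZT10, against 34.1% of all genes at that p. The 23 became 12 without the ZT16 library, where 13% of all genes tested had an unadjusted p under 0.05. The count was 7 without the ZT20 library, where 9.12% of all genes tested did. Where 2 levels are given for a gene of these lists, they are those of its highest and lowest libraries.

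Of 30 other hydrolases, 7 had an unadjusted p under 0.05 (23.3%), and 10 were highest at ZT8. Arsb, a sulfatase of dermatan sulfate, ran between 53.3 FPKM (ZT20) and 76.8 FPKM (ZT4) (limma adjusted p = 0.13). Galc, the galactosylceramidase, was at 68.7 FPKM (ZT4) and 42.6 FPKM (ZT20) (adjusted p = 0.131). Lipa, the lysosomal acid lipase, was at 119 FPKM (ZT12) and 91.2 FPKM (ZT20) (adjusted p = 0.152). All 3 had their lowest level at ZT20.

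Of 22 other membrane and carrier proteins, 9 had an unadjusted p under 0.05 (40.9%), against 19.1% of all genes tested, and differences between the lists were not tested. Slc29a3, a nucleoside transporter of the lysosomal membrane, had 49.5 (ZT0), 47.7 (ZT4), 34 (ZT8), 30 (ZT12), 29.5 (ZT16) and 35.3 (ZT20) FPKM. It had an amplitude of 0.40 ± 0.05 (SE, log2 scale, n = 6 libraries), a fitted peak at ZT1.79 and the smallest limma adjusted p of the lysosomal genes, 0.0837. Clcn7, the chloride-proton exchanger of lysosomes, was at 14.8 FPKM (ZT8) and 9.78 FPKM (ZT16) (adjusted p = 0.158), and Sidt2, a lysosomal membrane protein, at 40.8 FPKM (ZT4) and 28.3 FPKM (ZT20) (adjusted p = 0.172).

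Of 19 genes tested for transport to the lysosome, 4 had an unadjusted p under 0.05 (21.1%). Igf2r and M6pr encode the receptors that carry enzymes tagged with mannose 6-phosphate. Igf2r had 17 (ZT0), 20.5 (ZT4), 18.5 (ZT8), 16.7 (ZT12), 13.6 (ZT16) and 12.6 (ZT20) FPKM (amplitude 0.31 ± 0.05, SE, log2 scale, n = 6 libraries; limma adjusted p = 0.12). M6pr was at 111 FPKM (ZT8) and 88.2 FPKM (ZT20) (adjusted p = 0.218). Vps41, of the complex that tethers vesicles to lysosomes, was at 29.1 FPKM (ZT8) and 21.3 FPKM (ZT20) (adjusted p = 0.159).

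Of 19 genes tested for transcriptional and nutrient control, 3 had an unadjusted p under 0.05 (15.8%). Fnip2, a partner of folliculin, was at 29.3 FPKM (ZT12) and 13.6 FPKM (ZT20) (limma adjusted p = 0.178). Mtor, the growth-controlling kinase recruited to lysosomes, was at 16.7 FPKM (ZT4) and 12.7 FPKM (ZT20) (adjusted p = 0.217), and Lamtor5, a subunit of the Ragulator complex that anchors it there, was highest at ZT20, with 78.3 FPKM, and lowest at ZT4, with 54.1 FPKM (adjusted p = 0.236). Of 10 inhibitors of cathepsins 3 were tested, with 0 at an unadjusted p under 0.05. Cst3, which encodes cystatin C, was at 229 FPKM (ZT16) and 169 FPKM (ZT4) (adjusted p = 0.279), Cstb, cystatin B, at 69 FPKM (ZT8) and 40.4 FPKM (ZT4) (adjusted p = 0.599), and Serpinb6a, a serine protease inhibitor, at 18.1 FPKM (ZT8) and 12.4 FPKM (ZT4) (adjusted p = 0.386).

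**Figure D5:**
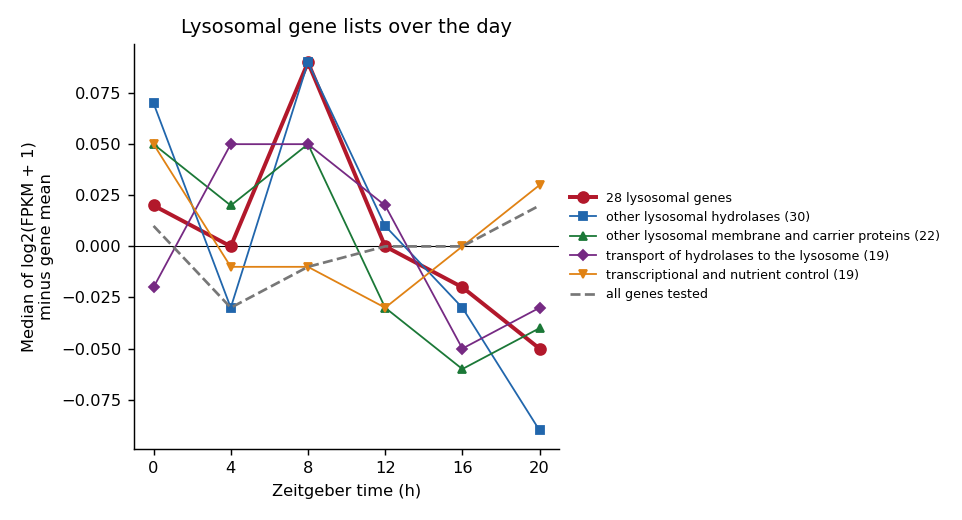
Median over the genes of a list of log2(FPKM + 1) minus the mean of the gene over the 6 libraries, at each zeitgeber time in hours. The number of genes tested in each related list is in the legend. The inhibitors of cathepsins, of which 3 were tested, are not drawn. The 28 lysosomal genes and the 30 other hydrolases both stand at 0.09 at ZT8, where all genes tested stand at -0.01, and at -0.05 and -0.09 at ZT20, where all genes tested stand at 0.02.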

How the data were processed

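Mouse kidney RNA was sequenced as 6 strand-specific libraries, per the labels' protocols. Bcl2fastq 2.20 and mm9 appear in the submitters' processing notes, while no aligner or quantifier is given in the sources used here. Values deposited by the authors are FPKM of 128603 Ensembl transcripts, with the transcript length in bases, per the file headers. The loci of all 28 genes hold the gene's position in GENCODE M21 on GRCm38, so positions are given on that build. Transcripts were summed per symbol, and no source used here says whether the quantification used strand, so 13 of the 28 genes that overlap another gene may hold its reads.

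Log2(FPKM + 1) of 12709 genes (mean of at least 1 FPKM) was fitted with a cosine and a sine of 24 h in limma 3.58.1 and R 4.3.3 (eBayes with trend, 3 residual degrees of freedom), with Benjamini-Hochberg adjustment over all genes. The number of animals behind a library is not stated. The limma p-values measure only the scatter of these 6 libraries around the curve, with each gene's scatter drawn toward that of genes of similar level. The fold on this scale understates that of low genes. On simulated data the fit recovered 33.9% of waves of amplitude 0.5 and 87% of amplitude 1 (200 planted in 12709 genes, 5 runs). Recovery was counted at an adjusted p under 0.05, and not at an unadjusted p. Each gene's simulated scatter was its own scatter around the curve in these 6 libraries. Tables and figures used Python 3.11.15, numpy 2.4.6, pandas 2.3.3 and matplotlib 3.10.9. The genes and lists were chosen with earlier results of these data known. All 28 genes are named, and from each related list the 3 genes with the smallest p.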

Additional observations from a re-analysis of the deposited data

How the results depend on the processing

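With an adjusted p under 0.05, 0 of the 28 genes passed in the limma fit and under all 15 alternatives (a pseudocount of 0.1, no filter, a mean of 5 FPKM or more, scaling by the median of ratios, quantile normalization, the most abundant transcript, no trend, robust moderation, ordinary least squares, and each library left out). At an unadjusted p under 0.05 the count was 4, with 7 under quantile normalization and 2 to 5 when a library was left out. The share of all genes tested was 19.1%, with 19.1% under quantile normalization and 9.12% to 19.4% when a library was left out. The count in the related lists was 23, with 7 to 27 when a library was left out. The count of genes lowest at ZT20 was 11, with 6 under quantile normalization, and that of genes highest at ZT8 was 16, with 13 to 17. These last scalings were added after the data were seen, and the shares of all genes tested under them are not given here. The median amplitude moved by less than the median standard error of the genes' amplitudes. Over all genes, 36 passed the adjusted threshold, against 66 with robust moderation, 7 without trend, 2 with the most abundant transcript, 2 by ordinary least squares, 0 with no filter and 0 to 4 with a library left out. At an unadjusted p it was 2428, against 1154 without ZT20. The cause of these moves was not tested. No paired analysis was possible because each time has 1 library. With 6 libraries and 3 residual degrees of freedom, the fit recovered 33.9% of simulated waves of amplitude 0.5 at an adjusted p under 0.05. Of the 28 genes, 27 had smaller amplitudes. The simulated waves were planted in genes drawn from all those tested, whose median level was 9.03 FPKM, against 66.3 FPKM in the lysosomal genes. Recovery in genes as abundant as these was not simulated separately.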
